A study of Homo sapiens with 12 samples.

Results

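MV3 melanoma cells that had been kept with vesicles of M1 macrophages were compared, gene by gene, with MV3 cells kept with PBS. The comparison used 6 of the 12 samples of the series, 3 with M1 vesicles (M1 EV) and 3 with PBS (Ctrl), and covered all 13113 genes with enough counts to be tested. All samples were MV3 cells, an established human melanoma line, placed for 3 h in medium with 1% serum depleted of vesicles. They were then held for 24 h with PBS or with 1e10 particles per well. THP-1 cells, which are human monocytic leukaemia cells grown as a line, supplied the vesicles after 48 h of polarization to an M1 state. The other 6 samples received vesicles of M0 or M2 THP-1 macrophages (M0 EV and M2 EV, 3 each) and serve as a reference for vesicles as such. One melanoma line and vesicles of one leukaemia line were used, and the labels neither give the polarizing agents nor say that the replicates were separate cultures. P-values therefore measure the spread between these samples, which may be technical.

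M1 macrophages are the inflammatory form of the cell, and the vesicles that cells release carry proteins, lipids and RNA that a recipient cell can take up. In many cell types inflammatory signals act through NF-kB, a family of transcription factors that is held in the cytoplasm by inhibitor proteins and, once freed, binds short DNA motifs near the genes it switches on. Several of its own subunits and inhibitors are among those genes, which gives the pathway its feedback. Melanoma cells can answer such signals with secreted attractants of leukocytes, with a changed matrix and with changed adhesion.

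The 6 libraries held 9694683 to 11250639 counts over genes, and values below are CPM, counts scaled by TMM to a common library total, a scale that does not correct for gene length. The defining melanocytic genes SOX10, TYR, DCT and TYRP1 had no count in the Ctrl or M1 EV libraries, and MITF had 25 and 28. Of the 18 genes of that list 7 had enough counts to be tested, among them MLPH, a carrier of pigment granules, at 128 ± 4.0 and 134 ± 6.3 CPM, and MC1R, the melanocortin receptor, at 71.5 ± 4.3 and 94.9 ± 5.3 CPM; 2 of the 7 were called higher (1 in each fit without 1 library except Ctrl replicate 3) and 2 lower. In unscaled counts over the 3 libraries of a group, GPNMB had 1052 in Ctrl and 685 in M1 EV, and TFAP2A 654 and 484. MLANA, also tested, had 24 and 34. AXL, SOX9 and other genes of the undifferentiated melanoma state were expressed. Of 24 markers of macrophages and monocytes only CD68, which other cells also carry in their lysosomes, was tested. It went from 56.7 ± 3.7 to 66.9 ± 0.73 CPM (mean ± SD, n = 3), and its part in the results was not tested. In bulk RNA the number of cells of a type and the RNA per cell cannot be told apart. The other 23 had 50 counts in all over the 3 Ctrl libraries and 50 over the 3 M1 EV libraries, and 10 of them, among them CD163, TYROBP, C1QA, MARCO and S100A8, had none in any library of the series.

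Of the 13113 genes, 3683 (28.1%) differed between M1 EV and Ctrl at an adjusted p below 0.05 (edgeR's quasi-likelihood test with Benjamini-Hochberg adjustment), 1881 higher (14.3%) and 1802 lower (13.7%) with M1 vesicles. In 5192 genes (39.6%) the CPM ranges of both groups did not overlap. The list counts given below are to be read beside the 14.3% higher and 13.7% lower of all genes. Most of the differences were small. Of the genes called, 50.3% changed by less than 0.25 on the log2 scale, 1073 upward and 779 downward, and 32.8% by 0.25 to 0.5. The largest changes were rises. Between 1 and 2 on the log2 scale 54 genes rose and 65 fell, between 2 and 3 there were 12 and 4, and from 3 upward 10 rose and none fell. The share called grew with expression level, from 5.52% of genes below 1 CPM to 44.3% of those at 100 to 1000 CPM and 58% of the 81 genes above that. Changes of 2-fold or more lay mainly at low levels: at 100 to 1000 CPM 3 genes rose and 1 fell by that much, and none did above 1000 CPM.

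**Figure D1:**
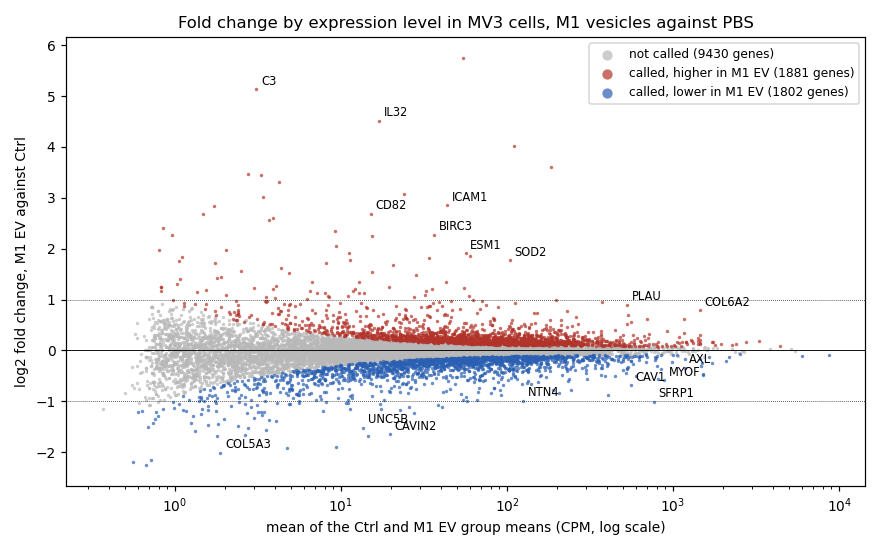
Each point is one of the 13113 genes tested; the horizontal axis is the mean of the Ctrl and M1 EV group means in CPM on a log scale, the vertical axis the log2 fold change of M1 EV against Ctrl, and dotted lines mark 2-fold. The 1881 genes called higher reach much larger changes than the 1802 called lower, and the band of uncalled genes narrows with expression.

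Beyond chemokines, cytokines and complement, large rises included genes of leukocyte signalling and of the cell surface. CD82, a tetraspanin known as a suppressor of metastasis, lies at chr11:44564409-44620358 in hg38. It stood at 4.20, 4.21 and 3.82 CPM in the Ctrl libraries and at 27.5, 27.00 and 24.3 in the M1 EV libraries, a log2 fold change of 2.69 ± 0.11 (SE), with an adjusted p of 2.26e-22. Every M1 EV library lay more than 5 times above every Ctrl library, and the M0 EV and M2 EV means were 4.93 and 4.99 CPM. ESM1, a secreted proteoglycan of activated endothelium, stood at 22.99, 23.2 and 24.9 CPM in Ctrl and 91.9, 83.00 and 92.4 with M1 vesicles (log2 fold change 1.91 ± 0.060, adjusted p = 2.09e-25). P2RY6, a receptor for uridine diphosphate, stood at 0.300, 0.411 and 0.533 CPM in Ctrl and 2.37, 3.92 and 2.84 with M1 vesicles (log2 fold change 2.84 ± 0.32, adjusted p = 4.66e-09). Its Ctrl values rest on few counts, and the groups do not overlap. LTB, the lymphotoxin subunit that anchors its partner at the membrane, and TNFRSF9, the costimulatory receptor 4-1BB, were also rare in Ctrl. LTB stood at 0.400, 0.411 and 0.355 CPM in Ctrl and at 2.17, 2.37 and 3.14 with M1 vesicles (log2 fold change 2.69 ± 0.32, adjusted p = 1.54e-08). TNFRSF9 stood at 1.40, 0.616 and 1.24 CPM in Ctrl and at 6.81, 6.57 and 6.67 with M1 vesicles (log2 fold change 2.59 ± 0.20, adjusted p = 2.2e-13).

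Subunits and inhibitors of NF-kB rose together. Of the 11 genes of a list of its subunits and inhibitors, all tested, 10 rose and none fell, with a median log2 fold change of 0.851 beside 0.00079 over all genes tested. RELB, the subunit of the slower, non-canonical branch, stood at 15.8, 13.2 and 15.9 CPM in Ctrl and 54.5, 55.5 and 49.6 with M1 vesicles (log2 fold change 1.83 ± 0.072, adjusted p = 2.37e-22). NFKBIZ, a nuclear inhibitor-like protein that helps to switch on secondary genes, stood at 5.20, 6.16 and 4.71 CPM in Ctrl and 27.98, 25.7 and 22.6 with M1 vesicles (log2 fold change 2.25 ± 0.11, adjusted p = 1.88e-19). NFKBIA, the inhibitor that holds the canonical dimer in the cytoplasm, stood at 25.99, 23.2 and 24.1 CPM in Ctrl and 62.8, 61.6 and 61.6 with M1 vesicles (log2 fold change 1.34 ± 0.060, adjusted p = 1.69e-20). In these 3 genes the lowest M1 EV library was more than 2 times the highest Ctrl library. The precursor subunits moved less: NFKB2 rose by 0.96 and NFKB1 by 0.61 on the log2 scale. The enzymes that switch the pathway on or off were mixed, with 6 of 31 ubiquitin editors and kinases higher and 3 lower (median 0.0473), a share near that of all genes. MAP3K14, the kinase (NIK) that drives the non-canonical branch, stood at 76.97, 69.97 and 70.9 CPM in Ctrl and 33.04, 38.7 and 38.4 with M1 vesicles, a log2 fold change of -0.98 ± 0.058 (adjusted p = 1.23e-16). BIRC2, known to promote breakdown of the NIK protein, rose by 0.61, and a link between the changes in RNA was not tested. The gene MAP3K14-AS1 overlaps MAP3K14 on the opposite strand, and since the use of strand in counting is not stated in the labels, reads of the pair cannot be told apart.

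The promoters of 6 genes called higher are shown because each holds a kappaB motif, the DNA element that NF-kB dimers bind, within 250 bases of its start. The sequences are those of RefSeq on GRCh38.p14, each the 250 bases before the annotated start, 5′ to 3′ on the strand of the gene; capitals mark matches to the kappaB decamer consensus or to the 9-letter core GGAATTTCC, on either strand. ICAM1 is chr19:10270870-10271119 (plus strand), IL32 chr16:3065153-3065402 (plus), LTB chr6:31582426-31582675 (minus), TNFRSF9 chr1:7940840-7941089 (minus), NFKBIA chr14:35404750-35404999 (minus) and NFKBIZ chr3:101827740-101827989 (plus).
ICAM1: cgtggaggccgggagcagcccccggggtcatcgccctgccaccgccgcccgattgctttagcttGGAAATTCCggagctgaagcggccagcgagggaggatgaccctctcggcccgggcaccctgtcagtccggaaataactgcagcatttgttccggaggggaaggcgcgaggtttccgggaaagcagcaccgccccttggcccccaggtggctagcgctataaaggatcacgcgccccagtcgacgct
IL32: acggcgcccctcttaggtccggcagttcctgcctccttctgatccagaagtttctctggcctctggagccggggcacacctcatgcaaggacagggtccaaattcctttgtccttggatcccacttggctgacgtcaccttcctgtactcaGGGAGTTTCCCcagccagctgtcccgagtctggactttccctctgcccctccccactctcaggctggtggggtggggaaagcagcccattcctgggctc
LTB: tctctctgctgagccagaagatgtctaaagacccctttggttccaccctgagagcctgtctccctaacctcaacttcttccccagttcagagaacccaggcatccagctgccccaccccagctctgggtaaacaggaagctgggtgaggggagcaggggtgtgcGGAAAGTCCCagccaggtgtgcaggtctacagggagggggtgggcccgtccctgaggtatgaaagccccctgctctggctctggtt
TNFRSF9: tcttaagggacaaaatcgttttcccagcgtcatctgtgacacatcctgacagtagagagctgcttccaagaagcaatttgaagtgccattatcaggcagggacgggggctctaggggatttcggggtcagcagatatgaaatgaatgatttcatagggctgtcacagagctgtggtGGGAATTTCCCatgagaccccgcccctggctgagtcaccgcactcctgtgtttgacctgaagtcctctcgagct
NFKBIA: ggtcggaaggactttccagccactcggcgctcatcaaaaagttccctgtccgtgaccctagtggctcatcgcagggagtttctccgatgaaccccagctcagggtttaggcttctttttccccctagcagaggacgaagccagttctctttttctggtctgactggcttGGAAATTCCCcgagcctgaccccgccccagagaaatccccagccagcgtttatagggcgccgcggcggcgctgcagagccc
NFKBIZ: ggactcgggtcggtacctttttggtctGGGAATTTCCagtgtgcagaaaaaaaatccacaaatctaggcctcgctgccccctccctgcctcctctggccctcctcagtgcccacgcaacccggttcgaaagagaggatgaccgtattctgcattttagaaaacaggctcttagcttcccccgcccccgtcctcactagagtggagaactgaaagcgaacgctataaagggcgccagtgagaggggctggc
Counted from the start, the match lies at -186 to -178 in ICAM1, -99 to -89 in IL32, -86 to -77 in LTB, -74 to -64 in TNFRSF9, -81 to -72 in NFKBIA and -223 to -214 in NFKBIZ. In TNFRSF9, NFKBIA and NFKBIZ the core lies inside a decamer match, and in IL32 and TNFRSF9 a pair of decamer matches overlap.

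Across all genes, promoter windows of 300 bases (250 before to 50 after the start) were available for 10485 of the 13113 tested genes, and the share with a motif was set beside the size of the change as a description. Among the 53 genes with a window that rose at least 2-fold, 20 (37.7%) held the kappaB decamer, beside 12.7% of all tested genes, 10.8% of all 27305 windows and 6 of 43 (14%) of the genes that fell at least 2-fold. The core GGAATTTCC stood in 9 of the 53 (17%), beside 0.41% of all tested genes, 0.472% of all windows and 0 of the 43. Below 2-fold this difference was small or absent: 13.1% of genes that rose by 0.5 to below 1 on the log2 scale and 13.2% of those that rose by less held the decamer. The TATA box letters TATAAA were in 17 of the 53 (32.1%), beside 5.67% of all tested genes and 12% of all windows. TGACTCA, the letters of the AP-1 site, were in 6 (11.3%) of the large rises and in 4 of 43 (9.3%) of the large falls, beside 3.13% of all tested genes and 4.92% of all windows. The letters GGAATG, to which TEAD factors bind, were in 12 of the 43 large falls (27.9%) and 4 of the 53 large rises (7.55%), beside 10.9% of all tested genes and 14% of all windows. CACGTG, the E-box that MYC binds, was in 14.4% of the 1337 genes that rose by less than 0.5, beside 10.4% of all tested genes and 7.43% of all windows. In all, 13 motifs were searched, and not all are given here. The antioxidant response element was in 11 of the 43 large falls (25.6%), beside 15.1% of all tested genes and 13.6% of all windows. Motif letters were searched on both strands, and a match is not evidence of binding.

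**Figure D2:**
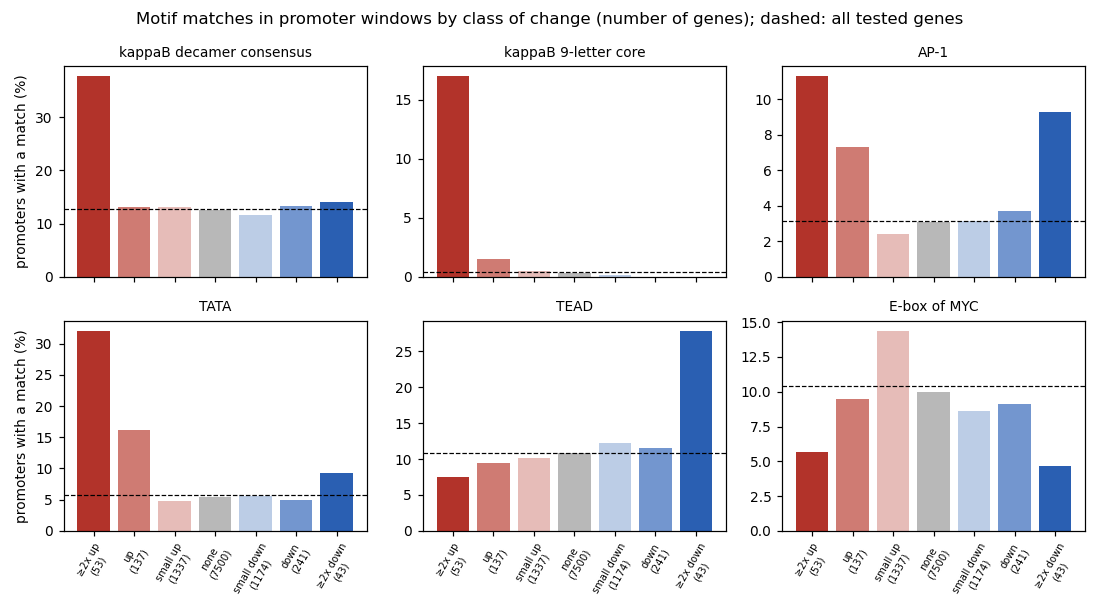
Bars give the percent of promoter windows that hold each of 6 motifs, by class of change from genes at least 2-fold higher (left) to at least 2-fold lower (right) with M1 vesicles, with the number of genes in brackets; the dashed line is the share of all tested genes, and the kappaB core lies inside some decamer matches. The kappaB and TATA bars are tallest for the 2-fold rises and the TEAD bar for the 2-fold falls.

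Genes that sense microbial or damage signals rose in part. Of 25 tested genes of toll-like, NOD and nucleic acid sensing, 11 rose and 1 fell (median 0.162). That fall, of STING1, was lost without replicate 3 of Ctrl, without replicate 2 or 3 of M1 EV and with DESeq2 (adjusted p = 0.123), which called 8 of the genes higher. IRAK2, a kinase below toll-like and interleukin 1 receptors, went from 9.80 ± 1.1 to 31.3 ± 3.8 CPM (mean ± SD, n = 3), a log2 change of 1.69 with an adjusted p of 2.38e-17. ZC3H12A, an RNase that degrades inflammatory messages, went from 5.13 ± 0.39 to 17.6 ± 0.58 CPM, a log2 change of 1.78 (adjusted p = 1.98e-16). CASP4, the caspase that senses lipopolysaccharide inside the cell, went from 25.4 ± 1.0 to 41.1 ± 1.2 CPM, and TLR3, the endosomal sensor of double-stranded RNA, stood at 3.63 ± 0.59 and 2.69 ± 0.14 CPM without passing the test. Among 29 tested genes of the TNF receptor family and its TRAF adaptors 8 rose and 4 fell (27.6% and 13.8%, beside 14.3% and 13.7% of all genes). The falls numbered 2 with DESeq2 or without Ctrl replicate 3. TRAF1 and TRAF3, adaptors of these receptors, rose by 1.04 and 0.45 on the log2 scale, and TNFRSF10B, a death receptor for TRAIL, by 0.45. TNFRSF21, death receptor 6, stood at 283, 276 and 284 CPM in Ctrl and 186, 194 and 191 with M1 vesicles, a log2 fold change of -0.56 ± 0.035 (adjusted p = 6.65e-16), with no overlap between the groups.

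In the interleukin 6 family and its JAK-STAT route, 14 of 37 tested genes rose and 6 fell (median 0.135). The rises included ligands and the shared receptor chain. IL6ST, the signalling chain gp130 that the whole family shares, stood at 142, 148 and 144 CPM in Ctrl and 211, 218 and 232 with M1 vesicles (log2 fold change 0.61 ± 0.042, adjusted p = 9.5e-15). LIF and IL11, ligands that signal through gp130, changed by 0.69 and 0.72 in log2 units, from 33.5 to 54.05 CPM and from 13.5 to 22.5 CPM. STAT3, the transcription factor at the end of the route, rose by 0.26 and its inhibitor SOCS3 by 0.26. The private receptor IL6R fell by 0.39 on the log2 scale, the kinase JAK1 by 0.14 and the inhibitor SOCS2 by 0.42. In the TGF-beta, BMP and activin list 13 of 32 rose and 3 fell. INHBA, the activin A subunit, went from 10.3 ± 1.3 to 18.3 ± 0.15 CPM, and TGFB1, SMAD3 and the activin-binding protein FSTL1 rose by 0.31, 0.32 and 0.30.

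Growth factor genes and the readout of the ERK pathway changed in both directions. Among 14 tested genes of the EGF receptor family 6 rose and 3 fell. The ligands EREG, NRG1 and HBEGF rose from 21.6 ± 0.77 to 39.3 ± 1.6 CPM, from 20.4 ± 0.68 to 32.6 ± 3.2 CPM and from 18.8 ± 1.3 to 29.9 ± 0.69 CPM, log2 fold changes of 0.86, 0.68 and 0.66. LRIG1, a membrane protein that promotes the breakdown of these receptors, rose by 0.53, and the receptor ERBB2 fell by 0.34 on the log2 scale. The ligand NRG2 and RHBDF1 were also called lower, and ERRFI1 was called higher. EGFR stood at 262 ± 7.0 and 275 ± 17.3 CPM and was not called, except without M1 EV replicate 1 (log2 change 0.12, adjusted p = 0.0403). The ligand AREG, averaging below 1 CPM in both groups, was not called. In a list of 20 genes that the ERK cascade switches on, many of them its own feedback inhibitors, 12 fell and 4 rose, with a median of -0.151. DUSP4, a phosphatase that inactivates ERK in the nucleus, stood at 118, 121 and 129 CPM in Ctrl and 79.1, 85.8 and 79.6 with M1 vesicles (log2 fold change -0.59 ± 0.046, adjusted p = 2.97e-13). SPRY2, a feedback inhibitor of receptor signalling, EMP1 and the factor ETV1 fell by 0.49, 0.36 and 0.37 on the log2 scale. DUSP6, another ERK phosphatase, did not pass the test, at 40.1 ± 1.4 and 41.3 ± 1.9 CPM. The 4 that rose were IER3, LIF, PHLDA1 and ETV4.

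Other receptor tyrosine kinases and their ligands leaned downward, with 15 of 29 lower and 5 higher (median -0.178). IGFBP6 and IGFBP4, secreted proteins that bind insulin-like growth factors, stood at 103 ± 7.7 and 131 ± 2.9 CPM in Ctrl and at 58.05 ± 1.8 and 92.3 ± 0.68 CPM with M1 vesicles, log2 fold changes of -0.83 and -0.51. GAS6, the ligand of AXL, fell by 0.29 and FGF5 by 0.32 on the log2 scale. EPHB2, a receptor for ephrins, rose by 0.50, FGF2 by 0.31 and PDGFA by 0.30. Among early response factors 8 of 26 rose and 1 fell, or 2 without M1 EV replicate 2. CEBPD and CEBPB, factors of the acute phase, rose by 1.18 and 0.74 and MYC by 0.36, from 54.7 ± 2.0 to 70.1 ± 1.9 CPM. KLF4 was the one that fell, by 0.51 on the log2 scale, and FOS, at 1.36 ± 0.21 and 2.14 ± 0.36 CPM, was not called (adjusted p = 0.0639, and 0.0405 with limma-voom).

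Genes of ribosome assembly rose together by small amounts. Of 40 nucleolar genes of ribosome biogenesis, 37 rose and none fell, with changes between 0.07 and 0.52 on the log2 scale and a median of 0.264. The median of the 40 genes relative to the Ctrl mean, on log2(CPM + 0.5), was 0.254, 0.262 and 0.258 in the M1 EV libraries, -0.000744 to 0.0107 in the Ctrl libraries, 0.0159 to 0.0399 in the M0 EV libraries and 0.0501 to 0.0739 in the M2 EV libraries. The M1 EV libraries therefore lay apart from all 9 others. DDX21, a helicase of ribosomal RNA synthesis, stood at 319, 326 and 311 CPM in Ctrl and 413, 408 and 426 with M1 vesicles (log2 fold change 0.38 ± 0.033, adjusted p = 3.75e-12). RRP12 and RRS1, assembly factors of the small and large ribosomal subunits, rose by 0.52 and 0.47, and the abundant nucleolar proteins NCL (nucleolin), FBL (fibrillarin) and NPM1 (nucleophosmin) by 0.26, 0.22 and 0.18. The 75 ribosomal proteins of the cytosol did not show this: 19 rose and none fell (median 0.0477), and 2 rose without M1 EV replicate 1 and 7 without Ctrl replicate 1. Their library medians were 0.132, 0.00194 and 0.0145 with M1 vesicles. Among 34 translation factors 19 rose and 2 fell, and 12 rose and 1 fell without Ctrl replicate 3. EIF5A rose by 0.24, and EEF1A1, which carries aminoacyl-tRNA to the ribosome, fell by 0.09 on the log2 scale from 8933 ± 205 to 8417 ± 48.7 CPM, a call lost without Ctrl replicate 3 (adjusted p = 0.0719).

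The proteasome followed the same pattern. Of its 35 constitutive subunits 27 rose and none fell, with a median of 0.153 and every one of the 35 above 0. PSMD2, a scaffold of the 19S cap, stood at 798, 796 and 806 CPM in Ctrl and 1053, 1021 and 1033 with M1 vesicles (log2 fold change 0.37 ± 0.028, adjusted p = 9.44e-14). Its rise was the largest of the list, and the next, the ATPase PSMC4, changed by 0.27. All 5 genes of the immunoproteasome, the form that cuts peptides for class I display, were called higher. PSME2, a subunit of its activator, rose by 0.44 from 77.3 ± 2.5 to 105 ± 6.1 CPM, and the catalytic PSMB9, PSMB8 and PSMB10 by 0.33, 0.28 and 0.24. Without Ctrl replicate 3 PSMB9 was no longer called (adjusted p = 0.0502). PSME1, the other subunit of the activator, lost its call without Ctrl replicate 1 (adjusted p = 0.209), without M1 EV replicate 1 (adjusted p = 0.217), with DESeq2 (adjusted p = 0.0843) and with transcripts summed (adjusted p = 0.0667), and PSMB8 did not pass the test against M2 EV (adjusted p = 0.358).

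Chaperones rose in both the mitochondrion and the endoplasmic reticulum. Of 27 mitochondrial chaperone and import genes 17 rose and none fell (median 0.192). HSPE1 and HSPD1, the paired chaperonins of the matrix, rose by 0.39 and 0.32, the channel TOMM40 by 0.34 and HSPA9 by 0.26. Of 30 endoplasmic reticulum chaperone and stress genes 12 rose and none fell (median 0.0896), with 1 fall without Ctrl replicate 1 or M1 EV replicate 3. The rises were led by HYOU1, from 232 ± 5.2 to 298 ± 10.7 CPM, a log2 change of 0.36 (adjusted p = 1.94e-10), and HSPA5 (BiP), which rose by 0.21. The respiratory chain did not move with them: 6 of its 76 nuclear-encoded subunits rose and 2 fell, with a median of -0.00601, and leaving out 1 library moved the falls to between 0 (without M1 EV replicate 2) and 5 (without M1 EV replicate 1). CYC1, the cytochrome of complex III, rose by 0.19. Mitochondrial ribosomal proteins lay between, with 26 of 75 higher and none lower (median 0.0924). Their count rested on single libraries, at 12 without M1 EV replicate 1, 16 without Ctrl replicate 2 and 17 without Ctrl replicate 1, and at 14 with DESeq2.

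**Figure D3:**
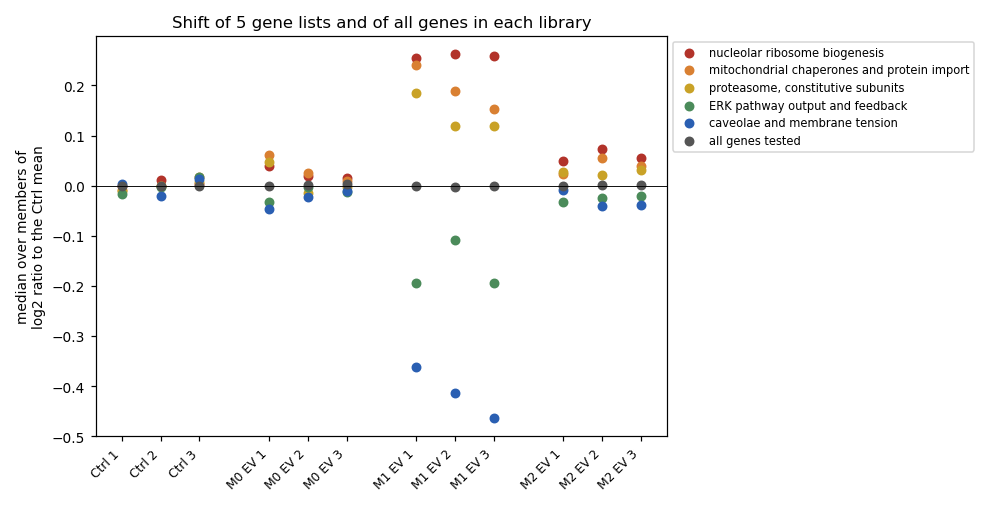
Each point is the median, over the tested members of one gene list, of the log2 ratio of a library to the Ctrl mean (CPM plus 0.5), for 5 lists and for all genes in the 12 libraries. The nucleolar list lies at 0.254 to 0.262 in the M1 EV libraries and the caveolae list at -0.464 to -0.361, while all genes stay near 0.

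The extracellular matrix moved in opposite directions, with collagen VI up and several fibril-modifying and laminin genes down. COL6A2 and COL6A1, neighbours on chromosome 21 (chr21:46098112-46132848 and chr21:45981770-46005048) that encode chains of the same microfibril, were the genes with the largest gains in CPM. COL6A2 stood at 1061, 1044 and 1104 CPM in Ctrl and 1851, 1859 and 1836 with M1 vesicles (log2 fold change 0.79 ± 0.031, adjusted p = 1.91e-22). COL6A1 stood at 919, 881 and 961 CPM in Ctrl and 1431, 1447 and 1375 with M1 vesicles (log2 fold change 0.62 ± 0.032, adjusted p = 1.15e-18). In both genes the Ctrl libraries lay well below all M1 EV libraries. Of 26 tested genes of collagens and collagen-modifying enzymes 9 rose and 8 fell. LOXL1, an oxidase that crosslinks elastin, stood at 38.98, 37.4 and 40.1 CPM in Ctrl and 17.2, 16.5 and 16.1 with M1 vesicles (log2 fold change -1.23 ± 0.069, adjusted p = 2.38e-17). COL8A1, a short-chain collagen of vessel walls, fell by 1.07 and COL5A2 by 0.51 on the log2 scale, while PLOD2, the lysyl hydroxylase of collagen crosslinking, rose by 0.42.

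Of 32 tested basement membrane and other matrix genes 14 fell and 9 rose (median -0.0941). The laminin chains split. LAMB3 rose by 1.05, from 17.98 ± 0.80 to 37.3 ± 3.0 CPM, while LAMA4, LAMA5, LAMB2 and LAMB1 fell by 0.74, 0.60, 0.42 and 0.38 on the log2 scale. HAS2, the enzyme that makes hyaluronan, and VCAN, the proteoglycan versican that binds it, rose by 0.87 and 0.61. TFPI2, a secreted inhibitor of matrix proteases, went from 15.01 ± 0.41 to 41.7 ± 2.8 CPM, a log2 change of 1.47 (adjusted p = 1.62e-18).

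Integrins and adhesion molecules changed in both directions. Of 20 integrin chains 4 rose and 5 fell (20% and 25%, beside 14.3% and 13.7% of all genes). The chains that rose were ITGA2, a collagen receptor, ITGA5, the fibronectin receptor, ITGAV and the shared partner ITGB1, by 0.66, 0.47, 0.44 and 0.16. ITGA2 stood at 197, 209.8 and 201 CPM in Ctrl and 296, 332 and 331 with M1 vesicles. The laminin-binding chains ITGA3 and ITGA6 fell by 0.27 and 0.21 on the log2 scale, and ITGA11 and ITGA10, collagen receptors, by 0.44 and 1.08. Among other adhesion genes 9 of 26 rose and 7 fell. The tetraspanins went opposite ways: beside the rise of CD82, CD9 stood at 148, 149.9 and 157 CPM in Ctrl and 93.8, 95.7 and 96.9 with M1 vesicles (log2 fold change -0.67 ± 0.041, adjusted p = 2.56e-16), and CD151, the tetraspanin partner of laminin-binding integrins, fell by 0.25 on the log2 scale. MCAM and CD44, adhesion proteins of melanoma cells, rose by 0.36 and 0.16, and L1CAM and BCAM fell by 0.55 and 0.90.

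The caveolae list fell almost whole. Of 11 tested genes 9 were lower and none higher, with a median of -0.352. Caveolae are flask-shaped pits of the plasma membrane, built from caveolins and coated by cavins. CAVIN2, a cavin that shapes the pit, lies at chr2:191834310-191847088 and had the largest fall: it stood at 28.3, 31.2 and 30.03 CPM in Ctrl and 10.9, 9.12 and 8.53 with M1 vesicles (log2 fold change -1.65 ± 0.099, adjusted p = 1.67e-16). CAV2, CAVIN1 and CAVIN3 fell by 0.33, 0.32 and 0.35 on the log2 scale, and EHD2, the ATPase at the neck of the pit, by 0.34. MYOF, which repairs the membrane, and ANXA1, which binds it in the presence of calcium, fell by 0.59 and 0.49. The median of the list relative to the Ctrl mean was -0.361, -0.413 and -0.464 in the M1 EV libraries and between -0.0462 and -0.00861 in the M0 EV and M2 EV libraries.

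**Figure D4:**
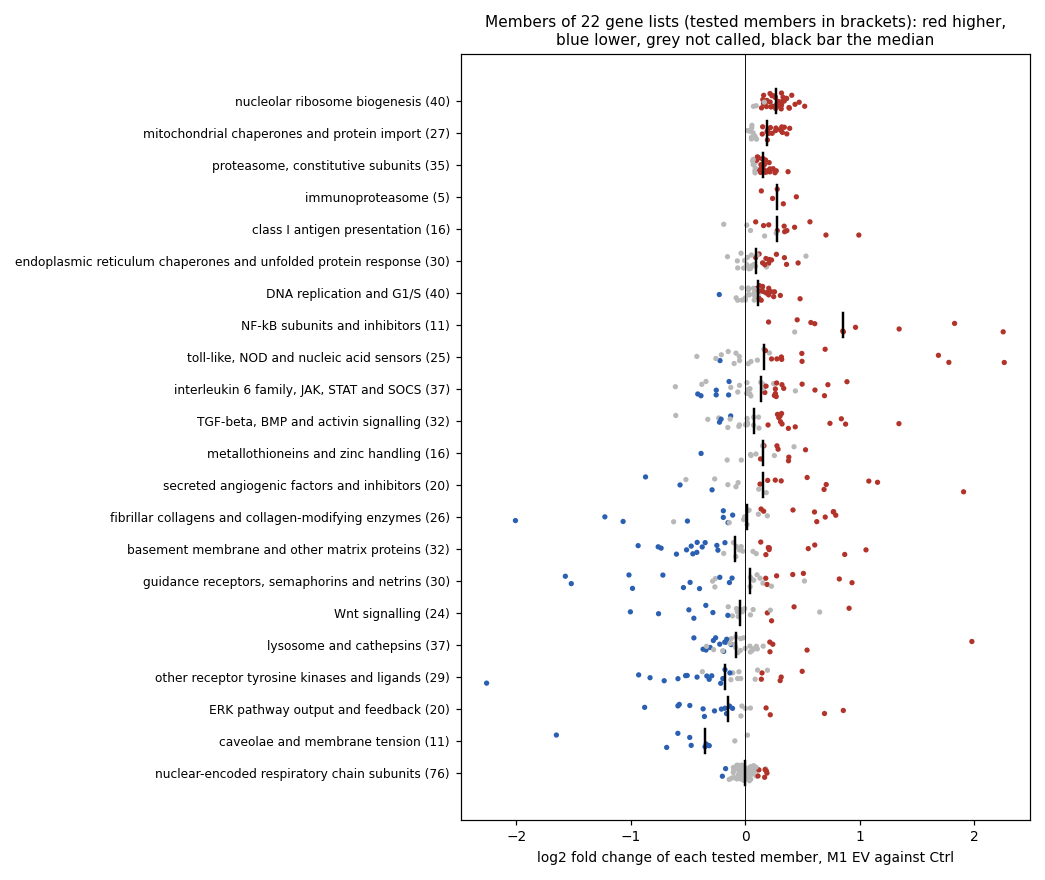
Each point is the log2 fold change of one tested gene, M1 EV against Ctrl, in 22 gene lists (tested members in brackets); red points were called higher, blue points lower, grey points neither, and black bars are medians. Most nucleolar, chaperone and proteasome genes sit in a narrow band above 0, most caveolae genes below 0, and matrix and guidance genes spread to both sides.

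Guidance molecules, first known from growing axons and vessels, changed in both directions. Of 30 tested genes 7 rose and 11 fell. SLIT2, the secreted repellent that binds ROBO receptors, stood at 77.8, 76.6 and 77.5 CPM in Ctrl and 142, 153 and 146 with M1 vesicles (log2 fold change 0.93 ± 0.044, adjusted p = 1.14e-19). NRP2, a coreceptor of semaphorins and VEGFC, went from 49.6 ± 1.9 to 87.4 ± 0.84 CPM and rose by 0.82. NTN4 and 2 netrin receptors fell. NTN4, a netrin of basement membranes, stood at 165, 168 and 164 CPM in Ctrl and 84.5, 79.8 and 87.1 with M1 vesicles (log2 fold change -0.99 ± 0.041, adjusted p = 1.98e-21). The netrin receptors UNC5B and DCC stood at 20.3 ± 1.4 and 5.31 ± 0.34 CPM in Ctrl and at 7.06 ± 0.53 and 1.79 ± 0.33 CPM with M1 vesicles, log2 fold changes of -1.52 and -1.57. UNC5B was also lower with the other vesicles than with PBS, at 14.5 CPM with M0 EV (adjusted p = 0.0199) and 15.1 CPM with M2 EV (adjusted p = 0.0354), and lower still with M1 vesicles (log2 fold change -1.03 against M0 EV, adjusted p = 2.04e-09). PLXNA2 and SEMA3A, a semaphorin receptor and a ligand, fell by 0.72 and 0.54 on the log2 scale.

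Secreted factors that act on vessels rose more often than they fell, 10 against 3 of 20 tested. STC1, a secreted glycoprotein, went from 37.96 ± 1.0 to 79.98 ± 3.9 CPM and THBS1, a matrix inhibitor of vessel growth, from 411 ± 2.6 to 662 ± 21.01 CPM, log2 fold changes of 1.08 and 0.69. VEGFC, the growth factor of lymph vessels, and VEGFA rose by 0.54 and 0.26, and the peptide hormones ADM and APLN fell by 0.57 and 0.87 on the log2 scale. In the Wnt list 7 of 24 fell (29.2%) and 4 rose (16.7%), beside 13.7% and 14.3% of all genes. SFRP1, a secreted antagonist of Wnt, was the largest fall among genes whose group means average at least 100 CPM. It stood at 1013, 1030.5 and 1022 CPM in Ctrl and 512, 511 and 505 with M1 vesicles (log2 fold change -1.004 ± 0.029, adjusted p = 1.26e-26), and at 981 and 1010.2 CPM on average with M0 and M2 vesicles. The antagonist DKK3 and the receptors FZD4, FZD2 and FZD7 fell by 0.49, 0.76, 0.45 and 0.35 on the log2 scale, while the ligand WNT10B rose by 0.91 from 3.17 ± 0.55 to 5.92 ± 0.26 CPM.

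**Figure D5:**
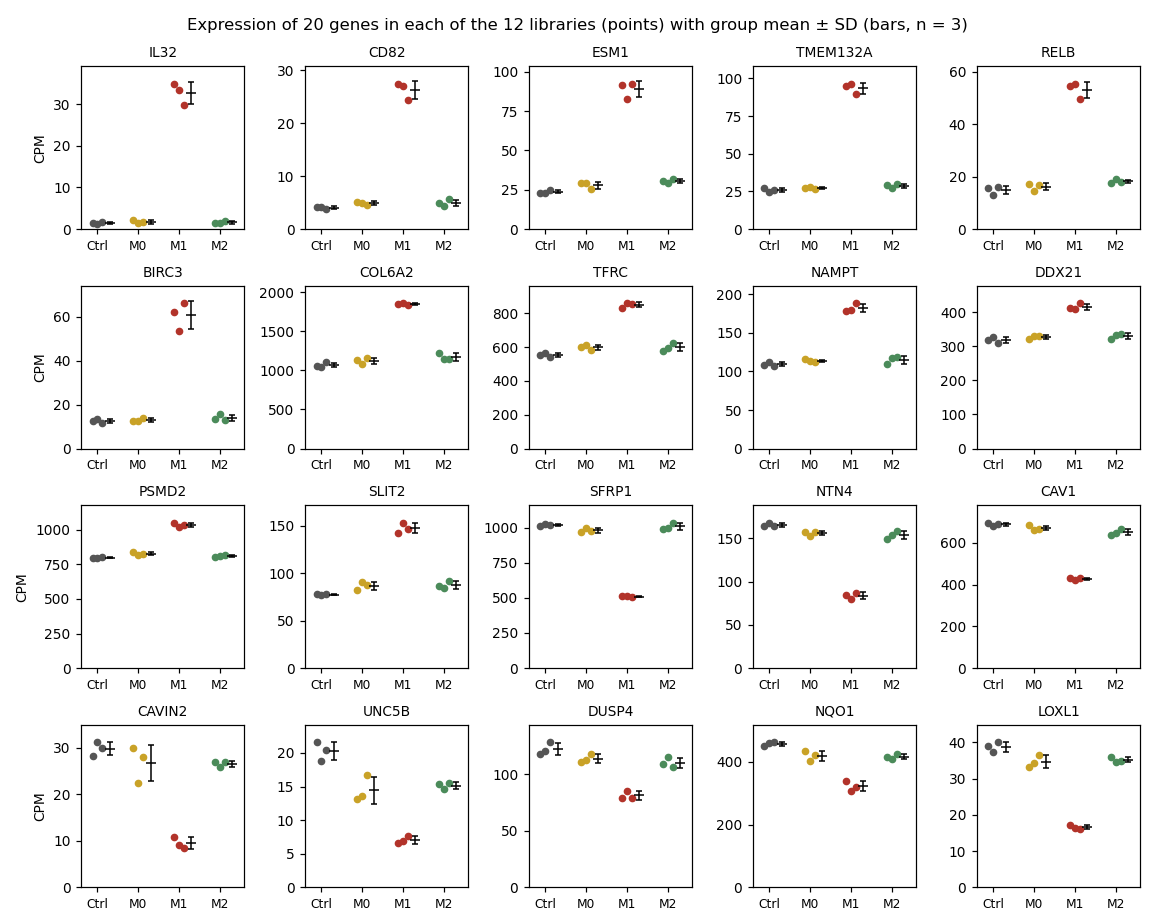
CPM of 20 genes in each of the 12 libraries (points), by group, with group mean ± SD (bars, n = 3); each vertical axis starts at 0. In all 20 genes the M1 EV libraries lie apart from the Ctrl libraries, and the M0 EV and M2 EV libraries lie nearer to the Ctrl mean than to the M1 EV mean, except 2 M0 EV libraries for UNC5B.

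Ion channels and G protein-coupled receptors changed in both directions. Of 28 tested ion channels 4 rose and 8 fell (14.3% and 28.6%, median -0.105). Without 1 library the rises numbered 2 to 4 and the falls 4 to 7. KCNG1, a silent subunit of potassium channels, went from 20.5 ± 0.99 to 43.5 ± 2.9 CPM, a log2 change of 1.09 (adjusted p = 2.71e-15). KCNN4, the calcium-activated potassium channel, and TRPV2, a calcium channel, fell by 0.51 and 0.36 on the log2 scale. Among 31 tested G protein-coupled receptors and RGS proteins 7 rose and 8 fell. The adrenergic receptor ADRA1B fell by 1.48 on the log2 scale, and NTSR1, the neurotensin receptor, stood at 176, 167 and 171 CPM in Ctrl and 103, 117 and 106 with M1 vesicles, a log2 fold change of -0.66. GPRC5B, an orphan receptor, rose by 0.68. RGS4 and RGS2, which switch off G proteins, split, at -1.15 and 0.97.

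Of 15 tested genes of iron handling 6 rose and 4 fell (median 0.0495). TFRC, the transferrin receptor that imports iron, stood at 551, 563 and 541 CPM in Ctrl and 833, 859.6 and 858 with M1 vesicles (log2 fold change 0.62 ± 0.031, adjusted p = 8.36e-19). ACO1, the aconitase that doubles as an iron-responsive RNA-binding protein, rose by 0.51. The ferritin chains parted, with FTH1 higher by 0.24 and FTL lower, at a log2 fold change of -0.13. NCOA4, which delivers ferritin to the lysosome, and FBXL5, an iron sensor, fell by 0.16 and 0.29 on the log2 scale, and STEAP3, a ferrireductase, by 0.18. Of 16 genes of metallothioneins and zinc handling 7 rose and 1 fell, and the fall, SLC30A4, was lost without Ctrl replicate 1 or 2, without M1 EV replicate 1 or 2 and with DESeq2. MT2A, a metallothionein that buffers zinc, went from 435 ± 20.3 to 627 ± 39.7 CPM, and the zinc importers SLC39A14, SLC39A10 and SLC39A8 rose by 0.38, 0.38 and 0.29. Of 23 genes of kynurenine, nucleotide and purine enzymes 8 rose and 5 fell (median 0.117). NAMPT, the rate-limiting enzyme of NAD salvage, stood at 108, 113 and 107 CPM in Ctrl and 178, 180.1 and 188 with M1 vesicles (log2 fold change 0.73 ± 0.040, adjusted p = 8.22e-18). NNMT, which methylates nicotinamide, and KYNU, the kynureninase, rose by 0.70 and 1.63. QPRT, which feeds quinolinate into NAD, fell by 0.37 on the log2 scale.

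Transporters and enzymes of nutrient use changed in both directions. Of 44 tested solute carriers 17 rose and 9 fell (38.6% and 20.5%, beside 14.3% and 13.7% of all genes). SLC43A2, an exporter and importer of large neutral amino acids, went from 2.38 ± 0.25 to 5.78 ± 0.85 CPM, a log2 change of 1.27 (adjusted p = 3.59e-07). SLC6A15, a neutral amino acid transporter, stood at 28.4, 30.8 and 27.00 CPM in Ctrl and 53.1, 53.8 and 50.6 with M1 vesicles (log2 fold change 0.87 ± 0.058, adjusted p = 2.68e-15), with a wide gap between the groups. The sugar transporter SLC2A12 and the choline transporter SLC44A2 changed by -1.27 and -0.70 in log2 units. Hypoxia and glycolysis genes split, 8 higher and 7 lower of 33. HK2, which traps glucose in the cell, rose by 0.28 and PFKFB3, an activator of glycolysis, by 0.33, while CA9, the carbonic anhydrase used as a hypoxia marker, fell by 0.76. In prostaglandin synthesis 4 of 10 rose and 1 fell. PTGS2, the inducible cyclooxygenase, stood at 0.800, 1.03 and 1.07 CPM in Ctrl and 2.27, 2.55 and 3.04 with M1 vesicles (log2 fold change 1.43 ± 0.26, adjusted p = 5.05e-05), a low level in all libraries.

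The actin list was balanced, with 7 higher and 7 lower of 33. TPM1, a tropomyosin that stabilizes filaments, rose by 0.41 from 92.6 ± 3.9 to 123 ± 7.3 CPM, and the calponins CNN2 and CNN3 fell, with log2 changes of -0.39 and -0.32. Of 43 tested genes of RAB GTPases and vesicle traffic 5 rose and 8 fell (11.6% and 18.6%, beside 14.3% and 13.7% of all genes tested). The rises numbered 3 without any 1 of Ctrl replicates 1 and 2 and M1 EV replicate 1. The falls numbered 4 without M1 EV replicate 3 and 5 without Ctrl replicate 3. FLOT1, a flotillin of membrane rafts, stood at 109, 102 and 109.6 CPM in Ctrl and 72.5, 69.2 and 67.2 with M1 vesicles (log2 fold change -0.62 ± 0.046, adjusted p = 6.95e-14). RAB27A and RAB27B, which dock vesicles for release, did not pass the test, at 23.3 ± 1.5 and 39.2 ± 0.68 CPM in Ctrl and 25.3 ± 2.1 and 36.3 ± 2.6 CPM with M1 vesicles.

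Lists of stress responses split rather than moved as one. Of 32 tested antioxidant and NRF2 target genes 7 rose and 7 fell, with a median of -0.00497; the rises numbered 4 without M1 EV replicate 1 or with DESeq2, and the falls 4 without M1 EV replicate 3. SQSTM1, an autophagy receptor, rose by 0.40, whereas NQO1, a standard readout of NRF2, stood at 451, 459 and 463 CPM in Ctrl and 341, 308 and 322 with M1 vesicles (log2 fold change -0.50 ± 0.035, adjusted p = 1.59e-14). CAT, the catalase, and TXNRD1, a thioredoxin reductase, fell by 0.40 and 0.20 on the log2 scale. In the p53 target list 8 of 27 rose and 7 fell, with 4 falls under DESeq2 or without Ctrl replicate 3. CDKN1A, the inhibitor p21 of cyclin-dependent kinases, went from 7.23 ± 0.41 to 18.5 ± 0.86 CPM, a log2 change of 1.35 (adjusted p = 2.21e-14), while PLK2 and TP53INP1, also p53 targets, fell by 0.77 and 0.90. CCND1, the G1 cyclin D1, fell by 0.21 on the log2 scale and its partner kinase CDK6 rose by 0.41. Of 34 tested genes of mitosis and G2/M 16 rose and none fell (median 0.0878). The rises numbered 12 with DESeq2 and 10 to 19 without 1 library. Against M0 EV 8 of the 34 genes were higher and 1 lower, and against M2 EV 7 and 1. Of 37 tested lysosomal genes 12 fell and 5 rose (median -0.0846). CTSL, the protease cathepsin L, rose by 0.54 from 121 ± 1.5 to 176 ± 7.6 CPM, while CTSB, PSAP and the membrane protein CD63 fell by 0.19, 0.22 and 0.37.

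Among well-expressed genes outside these groups, TNIP1, an inhibitor of NF-kB activation, TMEM158, a gene induced in RAS-driven senescence, and DNER, a ligand of NOTCH, stood at 133, 256 and 114 CPM in Ctrl and at 265, 497 and 189.6 CPM with M1 vesicles. They rose by 0.996, 0.96 and 0.73 on the log2 scale. Falls at that level included AHNAK2, PEG10 and LY6K. AHNAK2, a giant scaffold protein, stood at 546, 549.8 and 482 CPM in Ctrl and 266, 311 and 285 with M1 vesicles (log2 fold change -0.87 ± 0.064, adjusted p = 6.86e-14). PEG10, an imprinted gene of retrotransposon origin, and LY6K, a surface protein of tumours, fell by 0.83 and 0.77 on the log2 scale. MYO18A, an unconventional myosin, went from 162 ± 5.8 to 104 ± 3.2 CPM. Among rarer genes PADI3, a citrullinating enzyme, fell from 2.34 ± 0.40 to 0.841 ± 0.065 CPM, NANOS1, a repressor of translation, from 2.70 ± 0.51 to 0.970 ± 0.33 CPM and PGM5, a protein of adherens junctions, from 5.84 ± 1.1 to 2.26 ± 0.72 CPM. ZFP36L2, an RNA-binding protein that speeds the decay of AU-rich messages, fell by 0.62 from 187 ± 4.3 to 121 ± 2.9 CPM.

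Against the other vesicles the same M1 EV libraries gave 3321 genes called against M0 EV (25.3%; 1638 higher and 1683 lower) and 3229 against M2 EV (24.6%; 1649 higher and 1580 lower). These comparisons share the M1 EV libraries with the comparison against PBS, so each is given by its own values. The 40 nucleolar genes gave 35 higher against M0 EV and 33 against M2 EV, the constitutive proteasome 24 and 21 of 35, and the caveolae list 9 lower of 11 in each. For CD82 the log2 fold change was 2.41 against M0 EV (adjusted p = 8.76e-22) and 2.40 against M2 EV (adjusted p = 3.36e-22), and for SFRP1 it was -0.95 (adjusted p = 7e-26) and -0.99 (adjusted p = 1.48e-26). Of 40 replication genes 19 rose against PBS (13 with DESeq2), 9 against M0 EV and 10 against M2 EV, and 1 fell in each. MCM10, a replication initiation factor, rose against all 3, by 0.31 on the log2 scale against Ctrl, 0.34 against M0 EV (adjusted p = 1.43e-06) and 0.24 against M2 EV (adjusted p = 0.000215). Of the 15 largest falls against PBS, 1 did not pass the test against either vesicle type. B3GALT4, a galactosyltransferase of gangliosides near 1 to 2 CPM, fell by 1.42 on the log2 scale against Ctrl (adjusted p = 0.00096), with log2 fold changes of -0.90 against M0 EV (adjusted p = 0.0595) and -0.59 against M2 EV (adjusted p = 0.266).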

How the data were processed

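RNA sequencing of 12 samples, 4 groups of 3, was used. The deposited values are expected counts per RefSeq transcript, not normalized by the authors; they are multiples of 0.5 and were rounded. The submitters' processing notes name STAR 2.6.1b, HOMER 4.10 and hg38 without roles; how strand was used was not given in the sources used here. Of 70507 transcripts 69830 were named with RefSeq GRCh38.p14 and 327 with GENCODE release 29; the 350 others held 0.0608% to 0.0643% of counts. Each gene is its transcript with the highest sum over 12 libraries. All 12 libraries were fitted together with edgeR 4.0.16 (TMM, quasi-likelihood test, R 4.3.3, 8 residual degrees of freedom), without a replicate term; 13113 genes passed edgeR's low-count filter. Called means an adjusted p below 0.05 over all of them. The script was tested on simulated data.

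Members, gene lists, motifs and rules were chosen with earlier results of these data known. Named genes were the 15 largest rises and falls, the 10 largest from 100 CPM upward, and from each list the 5 with the smallest adjusted p each way plus its first 3 members. Except for those first 3 members, they had to be called, reach 1 CPM and not overlap between groups. Of the 48 genes named for size of change, 21 are given no values here. MLPH, GPNMB, TFAP2A, MLANA, STEAP3, CAVIN3 and EHD2 were chosen after their values were seen. Alternatives used DESeq2 1.42.0, limma-voom (limma 3.58.1), other scalings, filters and transcript choices, a replicate block, and each replicate left out.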

Additional observations from a re-analysis of the deposited data

How the results depend on the processing

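Against Ctrl, 1312 (DESeq2) to 1919 genes were higher and 1243 (DESeq2) to 1875 lower over the alternatives other than leaving out a library, and 1550 to 1748 higher and 1470 to 1588 lower without 1 library. With DESeq2, 1077 genes were lower against M0 EV and 997 against M2 EV, beside 1683 and 1580. Without 1 library, 1346 to 1580 genes were higher and 1283 to 1538 lower against M0 EV, and 1284 to 1533 higher and 1254 to 1366 lower against M2 EV. Genes called at least 2-fold numbered 76 higher and 69 lower, and 78 to 88 and 67 to 88 without 1 library. Over the other alternatives they numbered 65 to 95 higher and 57 (DESeq2) to 97 lower. Both counts were highest with all transcripts of a gene summed. Of 514 named genes called, 440 kept their call under every alternative and none reversed; DESeq2 lost 45. Deviations from the group mean in Ctrl and M1 EV libraries of the same replicate number correlated at -0.0465, -0.048 and -0.0414. These values cannot show whether the samples were paired, since such deviations also hold counting noise. With the replicate block 1919 genes were higher and 1 named gene, MDM2, lost its call. The E-box share of genes that rose by less than 0.5 was 11.3% in windows without the 50 bases after the start, beside 9.08% of all tested genes and 8.92% of genes not called in the same windows. Of genes below 1 CPM, which rest on the fewest counts, 5.52% were called.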

Other observations

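The genes in this section were chosen after their values were seen. Outside the lists, several secreted or signalling genes rose with M1 vesicles (edgeR's quasi-likelihood test throughout). TMEM132A, a membrane protein, stood at 27.4, 24.4 and 26.1 CPM in Ctrl and 94.7, 96.4 and 89.5 with M1 vesicles (log2 fold change 1.85 ± 0.055, adjusted p = 2.02e-26), and at 27.05 and 28.8 CPM on average with M0 and M2 vesicles. C1QTNF1, a secreted relative of complement C1q, stood at 4.90, 3.90 and 5.06 CPM in Ctrl and 19.2, 17.97 and 15.9 with M1 vesicles (log2 fold change 1.92, adjusted p = 1.5e-16). PTX3, a soluble pattern recognition protein, and SAA1, an acute phase protein, rose by 1.24 and 2.42; SAA1 stayed below 2 CPM in every library. SGK1, a kinase of salt and stress signalling, stood at 33.4, 34.3 and 31.8 CPM in Ctrl and 80.7, 77.2 and 74.1 with M1 vesicles (log2 fold change 1.22, adjusted p = 1.95e-20). GDNF, a neurotrophic ligand of the RET receptor, went from 7.11 ± 0.15 to 14.9 ± 0.15 CPM, IL1A from 2.54 ± 0.65 to 7.27 ± 0.36 CPM, and G0S2, an inhibitor of lipolysis, from 7.89 ± 1.1 to 23.01 ± 0.37 CPM. The transcription factor NFE2L3, a relative of NRF2, rose by 0.98. Among falls, CTNNBIP1, an inhibitor of beta-catenin, stood at 55.2, 52.8 and 59.1 CPM in Ctrl and 26.02, 25.4 and 26.3 with M1 vesicles (log2 fold change -1.11, adjusted p = 1.48e-17). TNS1, which ties integrins to actin, stood at 31.99, 31.5 and 31.6 CPM in Ctrl and 14.04, 13.9 and 14.1 with M1 vesicles (log2 fold change -1.18, adjusted p = 9.49e-15). AK5, an adenylate kinase, SCG2, a protein of secretory granules, SNED1, a matrix protein, and SECTM1, a ligand of CD7, fell by 0.997, 1.15, 0.92 and 0.98 on the log2 scale; CD7 itself fell by 1.53. LMNA, the nuclear lamin A/C, was among the largest losses in CPM, from 1766 ± 69.1 to 1285 ± 47.8.

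Of 874 long non-coding RNAs tested 106 were called, 45 higher and 61 lower, beside 28.1% of all genes. The share called grew with expression level, and these shares were not matched for level. MIR3142HG, the host transcript of miR-3142 and miR-146a, stood at 1.30, 0.616 and 1.24 CPM in Ctrl and 6.20, 5.84 and 6.96 with M1 vesicles (log2 fold change 2.56 ± 0.21, adjusted p = 1.29e-12). LNCOC1 stood at 239, 237 and 240.1 CPM in Ctrl and 144, 137 and 137 with M1 vesicles (adjusted p = 7.76e-20). SH3TC2-DT fell by 1.59 on the log2 scale from 1.99 ± 0.50 CPM. C10orf55 and IER3-AS1 rose by 0.89 and 0.87, but they overlap PLAU and IER3, and CEBPB-AS1 (log2 fold change 0.72) lies beside CEBPB, so their reads cannot be told apart from those of the coding genes without the strand. NEAT1 and MALAT1, abundant nuclear RNAs, were not called, at 52.4 ± 3.8 and 50.3 ± 1.1 CPM and at 56.6 ± 3.5 and 54.8 ± 4.6 CPM.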
